A study of Rattus norvegicus with 15 samples.

Results

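The transcripts described here are those of 35 genes of DNA replication and mitosis, chosen by symbol from a list, not by a threshold on measured values. All 35 were found in the deposited table, each under 1 row, among 37991 genes, and all 35 were among the 17201 genes with enough reads for a test. They comprised 11 genes of DNA replication, 9 of entry into mitosis, 4 of the spindle checkpoint and the anaphase-promoting complex, 5 of chromosomes and the spindle and 6 of cytokinesis.

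A cell that divides first licenses its replication origins with the MCM helicase, copies its DNA with the polymerase clamp PCNA and newly made nucleotides, and then enters mitosis under cyclins and CDK1. The spindle checkpoint holds the anaphase-promoting complex until all chromosomes are attached, after which the chromatids separate and cytokinesis cuts the cell. Mature muscle fibres do not divide, so transcripts of this kind in muscle are generally ascribed to mononuclear cells such as satellite cells, fibroblasts, endothelial cells and leukocytes. In bulk RNA, fewer cells of a type and less RNA per cell cannot be told apart.

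RNA of the multifidus, a paraspinal muscle, was sequenced from wild-type male Sprague Dawley rats aged 12 weeks, in 15 libraries. The control group (2 libraries) had no injury. The other groups had surgery on the left side, a hemilaminectomy in which the L5 spinal nerve was ligated and, per the paper's supplement, severed. They were left without treatment (surgery group, 2 libraries) or given injected mitochondria (pMT group, 4), vitamin D (VitD group, 3) or both (pMT/VitD group, 4). The mitochondria, called pMT, were isolated from plasma of human blood and injected into paraspinal muscle of the left side at 2 sites, L4-L5 and L5-L6, with 25 µg in 100 µL at each site and 50 µg per rat, and cholecalciferol was given at 150 µg per site and 300 µg per rat. For the control, surgery and pMT groups the injection was on day 14 where there was one and tissue was taken on day 28; the days of both VitD groups are not stated in the sources used here. Total counts were 52342134 to 73557878 per library. The labels do not say that the libraries of a group came from separate animals, so p-values measure the spread between these libraries, which may be technical.

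Some libraries stood apart from their groups. VitD replicate 1 had the highest level of most members and the lowest summed level of muscle fibre transcripts. Replicate 4 of the pMT group differed from the other pMT libraries by a spread of 0.294 to 0.523 (a robust SD, over abundant genes, of the log2 difference between 2 libraries), and from the nearest pMT/VitD library by 0.146. Replicate 4 of the pMT/VitD group likewise was 0.346 to 0.465 from its own group and 0.167 from the nearest pMT library. By the same measure the 2 surgery libraries differed by only 0.0594, and the 2 control libraries by 0.136. VitD replicate 2 lay 0.075 to 0.103 from the surgery libraries and 0.134 to 0.315 from its own group. Counts and medians of the members that turn on VitD replicate 1 or on both replicates 4 are given without them too, except where stated. Genes outside the list of members are given on all libraries only.

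Across the list, levels were low. Only Pcna (mean 23.3 TPM over all libraries), Tpx2 (17.7) and Mcm7 (13.2) exceeded 3 TPM, a scale that corrects for gene length and allows genes to be compared, while Cdk1 was at 2.78, Mki67 at 0.936 and Bub1b at 0.229. Counts per gene and library ran from 6, for Ccne1, to 4045, for Tpx2. Below, levels of single genes are CPM, counts relative to the TMM-scaled library size, listed by replicate number, differences are log2 fold changes, and a gene was called where its adjusted p was under 0.05 in edgeR's quasi-likelihood F-test with Benjamini-Hochberg adjustment over the 17201 genes.

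Relative to the control mean, the members lay higher in the surgery and VitD libraries, close to control in the pMT/VitD libraries, and between these in the pMT libraries. The median of the 35 members, as a log2 difference from the mean of the control libraries, was 0.614 and 0.605 after surgery alone and 1.4, 0.618 and 0.274 with VitD. It was 0.0921, 0.21, 0.211 and 0.173 with pMT and 0.00131, -0.10, 0.0661 and -0.149 with pMT/VitD. The medians of the surgery and VitD libraries thus did not overlap those of the pMT and pMT/VitD libraries. The same median over all 17201 genes stayed between -0.0185 and 0.0188 in every library, where the TMM scaling keeps it near 0. Under scaling by total counts alone, the median log2 fold change of all genes in surgery against control was 0.252, beside 0.847 for the members. Of the 35 members, 29 (82.9%) lay above both control libraries in every surgery library and 23 (65.7%) in every VitD library. The shares of all genes were 31.7% and 25.0%. In every pMT library 10 members did so (28.6%), beside 1275 of all 17201 genes. In every pMT/VitD library 1 member did so (2.86%), beside 727 of all genes.

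**Figure D1:**
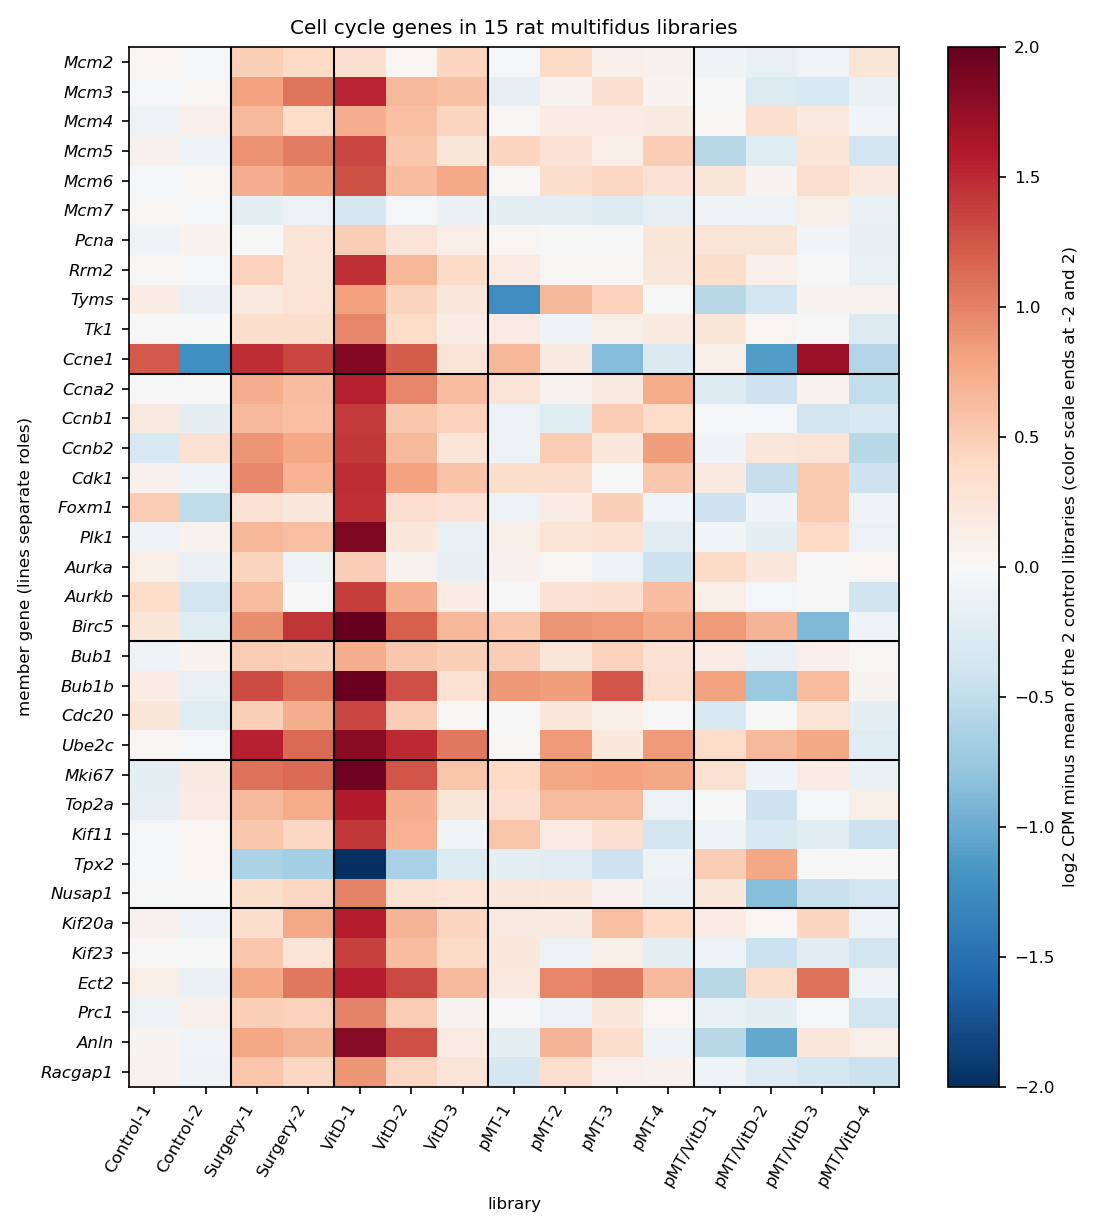
Each row is a member and each column a library, colored by log2 CPM minus the mean of the 2 control libraries, with lines between roles and groups. Surgery and VitD columns are mostly red, pMT/VitD columns are near white, and the Tpx2 row runs the other way. After surgery 29 members (82.9%) had both libraries above both controls, against 31.7% of all genes.

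Promoter sequences of 27 of the 35 members were matched in RefSeq (GRCr8 assembly, 300 bases per gene, 250 before and 50 after the gene's start), and none was matched for Mcm4, Rrm2, Ccna2, Foxm1, Aurkb, Ube2c, Tpx2 and Racgap1. Letters of 3 elements known from cell cycle promoters were searched on both strands: the CCAAT box, bound by NF-Y; the cell cycle homology region (CHR), searched as TTTGAA; and the E2F site, searched as any of TTCCCGC or the variant TTGGCGC or the variant TTCGCGC or the variant TTGCCGC. The letters CCAAT were found in 19 of the 27 (70.4%) against 37.5% of all 33469 promoters, CHR in 14 (51.9%) against 18.3%, and E2F in 11 (40.7%) against 9.52%. These shares describe the letters only. E2F letters were in 6 of 9 replication genes and CHR letters in 1 of 9, whereas CHR letters were in 4 of 6 genes of mitotic entry and 4 of 5 of cytokinesis. Mcm3 and Mcm5, the MCM genes called lower in pMT/VitD against surgery, hold CCAAT and E2F letters. So do Mcm6 and Mcm7, which were not called there. Cdk1 and Mki67 hold all 3 elements, as do Ccnb2, Kif23 and Ect2. The 150 bases before the start of Mcm3, Mcm5, Cdk1 and Mki67 are shown as examples, with letters matched within them in capitals. The E2F letters of Mcm3 lie across or after the start and are not in this stretch. In Mki67 the second CHR and the CCAAT box on the other strand (ATTGG) share a base.
Mcm3, chr9:30733747-30733896, minus strand: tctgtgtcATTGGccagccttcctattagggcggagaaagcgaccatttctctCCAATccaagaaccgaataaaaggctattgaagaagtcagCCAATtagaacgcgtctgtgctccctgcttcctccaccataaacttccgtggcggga
Mcm5, chr19:13488663-13488812, plus strand: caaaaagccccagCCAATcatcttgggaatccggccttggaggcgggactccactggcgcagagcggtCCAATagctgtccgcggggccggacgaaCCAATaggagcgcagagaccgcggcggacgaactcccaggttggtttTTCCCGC
Cdk1, chr20:19265143-19265292, plus strand: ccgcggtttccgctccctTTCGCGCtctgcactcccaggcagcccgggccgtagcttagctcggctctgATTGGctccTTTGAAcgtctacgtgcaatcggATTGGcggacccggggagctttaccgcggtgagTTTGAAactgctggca
Mki67, chr1:199952594-199952743, minus strand: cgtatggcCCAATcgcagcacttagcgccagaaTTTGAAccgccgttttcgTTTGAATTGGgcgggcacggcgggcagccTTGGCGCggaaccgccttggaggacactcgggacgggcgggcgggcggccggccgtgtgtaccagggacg

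The question put to the surgery libraries was whether the members were still higher on day 28 than in uninjured muscle. In surgery against control the estimate was higher for 33 of 35 members, with a median log2 fold change of 0.58 (all genes, -0.01), and 29 of 35 members (82.9%) had both surgery libraries above both control libraries, against 31.7% of all genes. None was called by edgeR's quasi-likelihood test, against 1.25% of all genes called higher; 12 members (34.3%, against 17.0% of all genes) had an unadjusted p under 0.05, and the smallest adjusted p was 0.0719, for Mcm6. Other analyses gave other counts, here with the share of all genes called in either direction by the same analysis. They were 21 members (32.4% of all genes) when only the control and surgery libraries entered the fit, 24 (36.3%) with edgeR's exactTest on those libraries, 19 (28.5%) with limma voom, 5 (5.94%) with DESeq2, 5 (5.98%) without VitD replicate 1 and 1 (4.17%) without both replicates 4. Tpx2 and Mcm7 were the members with lower estimates, and that of Mcm7 turned positive (0.12) when libraries were scaled by total counts alone.

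With pMT, the estimate was lower than in the surgery group for 34 of 35 members, with a median of -0.35, and 20 members (57.1%) had every pMT library below both surgery libraries, against 17.2% of all genes. None was called, against 1.55% of all genes called lower; 6 (17.1%) had an unadjusted p under 0.05, near the 14.3% of all genes. DESeq2 called 1 member (4.34% of all genes), exactTest 3 (7.1%) and voom 15 (37.5%), and edgeR's quasi-likelihood test called 2 (4.33%) without VitD replicate 1 and 0 without both replicates 4. Against control, pMT had 31 higher and 4 lower estimates with a median of 0.14, which was 0.26 without control replicate 1, 0.24 with the replicate block, 0.23 with voom and 0.28 under scaling by total counts alone. None was called, nor was any of the 17201 genes (0%), and 2 members, Bub1 and Mki67, had an unadjusted p under 0.05 (5.71%, against 3.07% of all genes), while DESeq2, exactTest and voom called no member.

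In pMT/VitD against surgery, 5 members fell: Mcm3, Mcm5, Ccna2, Mki67 and Racgap1. That is 14.3% of the members, beside 5.03% of all genes called lower. The estimate was lower for 33 of 35 members, with a median of -0.66 (all genes, -0.00156), and 25 members (71.4%) had all 4 pMT/VitD libraries below both surgery libraries, against 20.2% of all genes. The count was 14 without VitD replicate 1, 13 of them lower and Tpx2 higher (11.8% of all genes in either direction), 7 without both replicates 4 (20.1%), and 0 without surgery replicate 1 (0.727%) or 2 (0.687%). Against control the pMT/VitD members split into 16 higher and 19 lower estimates, with a median of -0.03; none was called by edgeR, DESeq2, exactTest or voom, none had an unadjusted p under 0.05 in edgeR's test (2.88% of all genes), and all genes gave 0% called. That split leaned either way with the analysis: it was 11 higher and 24 lower under scaling by total counts alone, but 21 and 14 without both replicates 4 (median 0.0661) and with the replicate block (0.0483).

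With VitD alone, 8 members rose against control: Mcm3, Mcm4, Mcm6, Rrm2, Ccna2, Bub1, Ube2c and Mki67. That is 22.9% of the members, beside 5.48% of all genes called higher. The estimate was higher for 33 of 35, with a median of 0.82 (all genes, -0.01), and 23 members (65.7%) had all 3 VitD libraries above both control libraries, against 25.0% of all genes. Without VitD replicate 1 the median was 0.446, with 32 higher and 3 lower. The calls of Mcm3, Mcm4, Rrm2, Ccna2, Bub1 and Ube2c were lost without that library, and those of Mcm6 and Mki67 were kept. The count of members called was then 2 (3.58% of all genes in either direction), and it was 5 (4.51%) without VitD replicate 2, 23 (14%) without VitD replicate 3, 22 of them higher and Tpx2 lower, 11 (15.1%) without both replicates 4, and 0 without either control replicate (0.0731% and 0.163%) or when only the VitD and control libraries entered the fit (0.579%). Against surgery, VitD gave 29 higher and 6 lower estimates with a median of 0.17, but this direction turned without VitD replicate 1, to 13 higher and 22 lower with a median of -0.094, and with voom the split was 21 and 14 with a median of 0.0197. No member and no gene (0%) was called, no member had an unadjusted p under 0.05 (0.808% of all genes), and DESeq2, exactTest and voom called no member.

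Adding VitD to pMT gave lower estimates than pMT alone in 30 of 35 members, with a median of -0.31, which was -0.175 without both replicates 4 (9 higher and 26 lower) and -0.20 without pMT replicate 3. No member and no gene (0%) was called, and 4 members, Mcm5, Ccna2, Bub1 and Mki67, had an unadjusted p under 0.05, a share of 11.4% near the 10.1% of all genes. Without both replicates 4 again no member was called, but 18.3% of all genes were. Voom called 8 members (22.9%), below its 38.3% of all genes, exactTest called none, and DESeq2 none of the 3 members to which it gave an adjusted p. In 3 members, Ccna2, Bub1 and Mki67, all pMT/VitD libraries lay below all pMT libraries (8.57%, against 2.40% of all genes), and in Mcm7 and Tpx2 all lay above (5.71%, against 2.46%). The difference of the pMT effect with and without VitD, an interaction term, had a median of -0.43, which was -0.172 without VitD replicate 1 (10 higher and 25 lower) and -0.22 with voom. It was called for no member and no gene (0%), with 4 members at an unadjusted p under 0.05 (11.4%, against 5.16% of all genes); DESeq2 called none and voom 6 (17.1%, against 31.4% of all genes). Without VitD replicate 1 and without both replicates 4, the count of members also stayed 0 for the interaction (1.89% of all genes without both replicates 4) and for pMT against control, pMT/VitD against control and VitD against surgery.

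In a test of any difference among the 5 groups 11 members were called (31.4%, against 11.8% of all genes): Mcm3, Mcm4, Mcm5, Mcm6, Ccna2, Bub1, Ube2c, Mki67, Kif23, Prc1 and Racgap1. This count was 7 without VitD replicate 1 (8.78% of all genes), 20 without VitD replicate 3 (13.4%) and 15 without both replicates 4 (29.8%). These comparisons share libraries, the surgery libraries in 4 of them and the control libraries in 4, and so are not independent of each other.

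**Figure D2:**
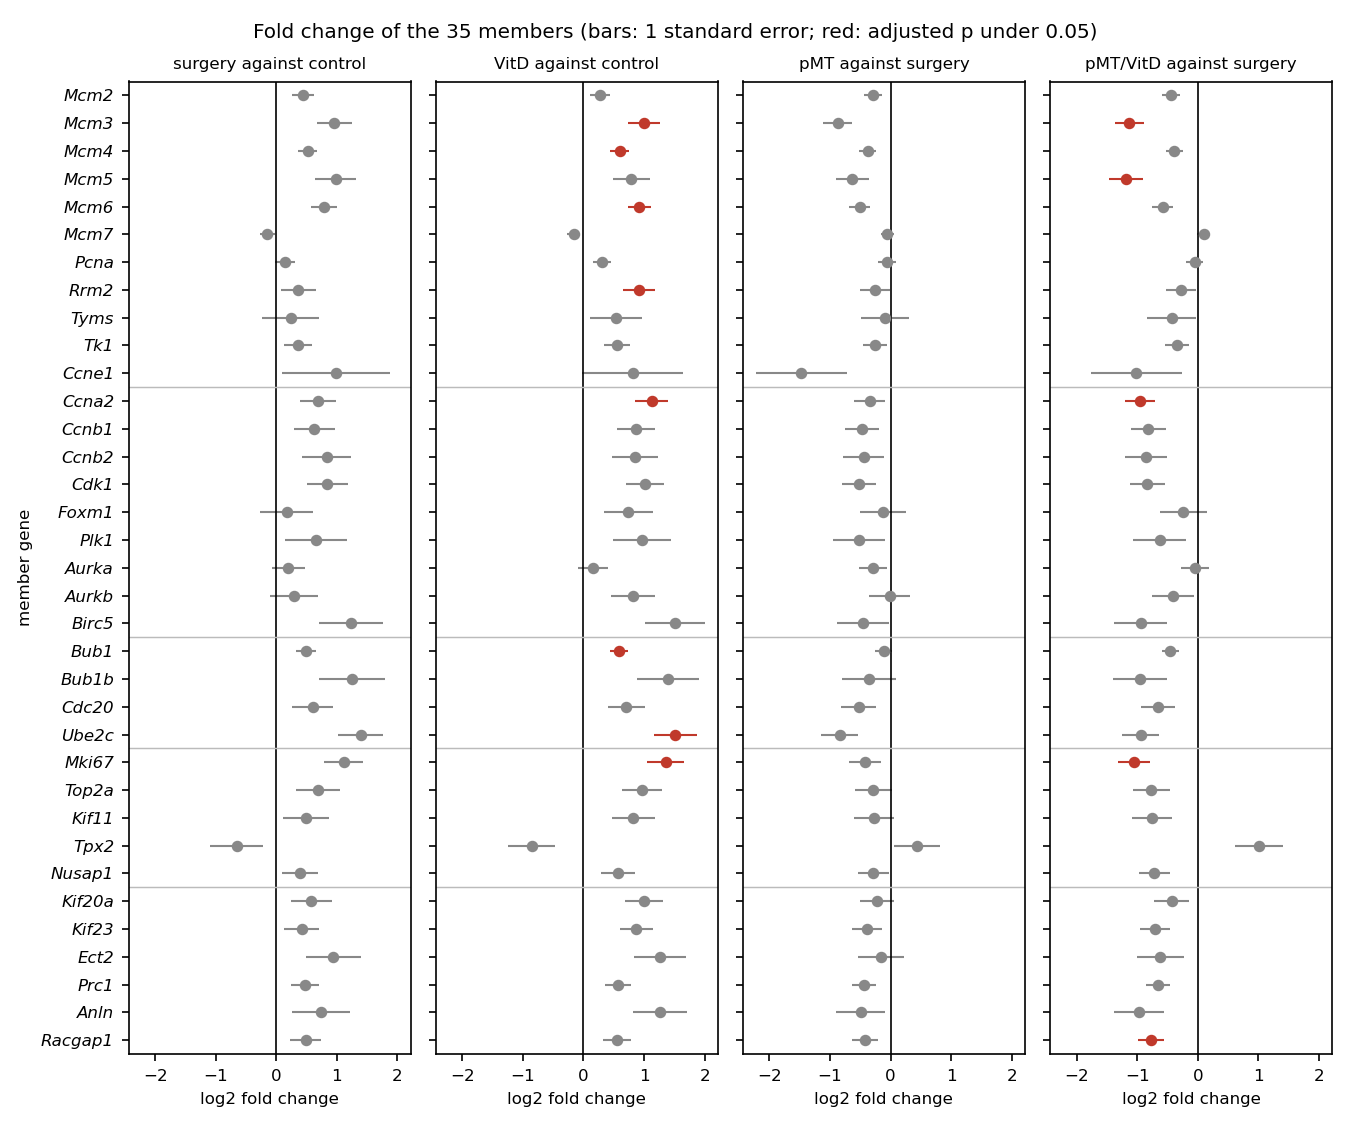
Points give the log2 fold change of each member in 4 comparisons, bars 1 standard error, and red points an adjusted p under 0.05. In pMT/VitD against surgery 5 members are red and 33 of 35 lie left of 0, in VitD against control 8 are red, and in the other panels none is.

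Replication genes were 5 of the members called in any comparison. Mcm3, a subunit of the replicative helicase, was the member with the smallest adjusted p in pMT/VitD against surgery. Mcm3 measured 1.47 and 1.52 CPM in control, 2.62 and 3.16 after surgery alone, 4.33, 2.34 and 2.25 with VitD, 1.33, 1.56, 1.86 and 1.55 with pMT and 1.49, 1.22, 1.2 and 1.36 with pMT/VitD. The pMT/VitD libraries did not overlap the surgery libraries and overlapped the control libraries. Mcm3 fell by 1.13 ± 0.24 on the log2 scale (SE) in pMT/VitD against surgery, 2.19-fold (edgeR adjusted p = 0.0149), and rose by 0.997 ± 0.27 in VitD against control (adjusted p = 0.0356). The call in VitD against control was lost without VitD replicate 1.

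Mcm5 measured 1.31 and 1.15 CPM in control, 2.31 and 2.54 after surgery alone, 3.12, 1.79 and 1.46 with VitD, 1.67, 1.51, 1.35 and 1.74 with pMT and 0.821, 1.04, 1.48 and 0.934 with pMT/VitD. Mcm5, another helicase subunit, was thus highest in VitD replicate 1 and in the surgery libraries, and 3 of 4 pMT/VitD libraries lay below both controls. It fell by 1.18 ± 0.28 in pMT/VitD against surgery (adjusted p = 0.0228), and its log2 fold change in VitD against control was 0.79 (adjusted p = 0.124). Mcm4 measured 4.4 and 5.03 CPM in control, 7.41 and 6.08 after surgery alone, 7.84, 7.19 and 6.36 with VitD, 4.8, 5.29, 5.29 and 5.33 with pMT and 4.78, 5.86, 5.42 and 4.54 with pMT/VitD. Mcm6 measured 2.76 and 2.83 CPM in control, 4.64 and 5.02 after surgery alone, 6.83, 4.31 and 4.74 with VitD, 2.85, 3.56, 3.74 and 3.42 with pMT and 3.33, 2.91, 3.48 and 3.19 with pMT/VitD. For both of these helicase subunits every VitD and surgery library lay above both controls. Mcm4 rose by 0.60 ± 0.15 in VitD against control (edgeR adjusted p = 0.0281) and Mcm6 by 0.92 ± 0.19 (adjusted p = 0.0136), and for neither did pMT/VitD against surgery pass (adjusted p = 0.10 and 0.0585). Without VitD replicate 1 the call of Mcm4 was lost and that of Mcm6 was kept.

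Rrm2 measured 1.88 and 1.8 CPM in control, 2.53 and 2.2 after surgery alone, 5.1, 2.93 and 2.4 with VitD, 2.06, 1.87, 1.87 and 2.15 with pMT and 2.36, 1.97, 1.85 and 1.65 with pMT/VitD. Rrm2, the small subunit of ribonucleotide reductase, which makes deoxynucleotides, was highest in VitD replicate 1 and at 1.65 to 2.36 CPM in the pMT and pMT/VitD libraries. It rose by 0.92 ± 0.27 in VitD against control (edgeR adjusted p = 0.0479), and this call was lost in 15 of 26 alternative analyses, leaving out VitD replicate 1 or 2 among them. Pcna measured 17.4 and 19.1 CPM in control, 18.3 and 21.8 after surgery alone, 25.7, 21.8 and 20.02 with VitD, 18.7, 18.4, 18.3 and 21.7 with pMT and 21.9, 21.6, 17.6 and 16.3 with pMT/VitD. Pcna, the polymerase clamp and the most abundant member by TPM, overlapped between all groups except that each VitD library exceeded both controls; its log2 fold changes were 0.14 in surgery against control and -0.05 in pMT/VitD against surgery.

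The remaining replication genes were not called. Mcm7 stayed within 20.7 to 28.3 CPM in all libraries. It was lower in both surgery libraries (23.0 and 24.1) than in both controls (26.6 and 25.7). Mcm2 ranged from 5.06 to 7.82 CPM, Tk1, a thymidine kinase, from 3.15 to 7.5, and Tyms, thymidylate synthase, from 0.270 to 1.23. Ccne1, the cyclin of the G1/S transition, had 6 to 92 counts per library. It was at 0.694 and 0.10 CPM in control and at 0.827 and 0.75 in surgery, and the 4 pMT libraries, at 0.138 to 0.455, lay below both surgery libraries. Its estimate in pMT against surgery, -1.47 ± 0.75, was the largest of any member there and did not pass (edgeR adjusted p = 0.405).

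Among the genes of mitotic entry, Ccna2, which encodes cyclin A2 of S phase and G2, was called in both directions. Ccna2 measured 1.61 and 1.63 CPM in control, 2.7 and 2.51 after surgery alone, 4.84, 3.23 and 2.51 with VitD, 1.97, 1.7, 1.83 and 2.72 with pMT and 1.34, 1.21, 1.7 and 1.15 with pMT/VitD. Surgery and VitD libraries all lay above both controls, and all pMT/VitD libraries below both surgery libraries, while pMT replicate 4 reached the surgery level. Ccna2 fell by 0.95 ± 0.25 in pMT/VitD against surgery (edgeR adjusted p = 0.0376) and rose by 1.12 ± 0.28 in VitD against control (adjusted p = 0.0265). The call in VitD against control was lost without VitD replicate 1. Cdk1 measured 1.86 and 1.63 CPM in control, 3.43 and 2.85 after surgery alone, 4.9, 3.06 and 2.62 with VitD, 2.22, 2.24, 1.74 and 2.55 with pMT and 1.99, 1.26, 2.52 and 1.3 with pMT/VitD. For Cdk1, the kinase that drives mitosis, the log2 fold changes were 0.84 ± 0.34 in surgery against control, -0.83 ± 0.29 in pMT/VitD against surgery and 1.01 ± 0.32 in VitD against control (adjusted p = 0.221, 0.0922 and 0.0623).

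The other 7 genes of this role passed no test. The B-type cyclins had estimates of -0.82 (Ccnb1) and -0.86 (Ccnb2) in pMT/VitD against surgery, at CPM of 0.946 to 3.29 and 0.487 to 1.98. Birc5, which encodes the chromosomal passenger survivin, had the role's largest estimate in VitD against control, 1.51 ± 0.50 (adjusted p = 0.0728), on counts of 12 to 200 per library. Plk1 was at 2.63 CPM in VitD replicate 1 and at no more than 1.12 in any other library, and Foxm1, a transcription factor of late cell cycle genes, was at 2.38 there and at no more than 1.23 elsewhere. The mitotic kinases Aurka and Aurkb had estimates of 0.20 and 0.30 in surgery against control and of -0.04 and -0.41 in pMT/VitD against surgery.

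Of the checkpoint genes, Bub1 and Ube2c rose with VitD. Bub1 measured 2.94 and 3.27 CPM in control, 4.41 and 4.31 after surgery alone, 5.17, 4.5 and 4.32 with VitD, 4.36, 3.67, 4.26 and 3.79 with pMT and 3.46, 2.82, 3.33 and 3.13 with pMT/VitD. The kinase gene Bub1 thus had every surgery, VitD and pMT library above both controls, and it rose by 0.59 ± 0.15 in VitD against control (edgeR adjusted p = 0.0279). Ube2c measured 0.757 and 0.733 CPM in control, 2.24 and 1.68 after surgery alone, 2.68, 2.15 and 1.58 with VitD, 0.758, 1.37, 0.868 and 1.37 with pMT and 0.972, 1.19, 1.29 and 0.623 with pMT/VitD. Ube2c, the ubiquitin-conjugating enzyme of the anaphase-promoting complex, had the largest change called among the members. It rose by 1.52 ± 0.35, or 2.86-fold, in VitD against control (edgeR adjusted p = 0.0202), and its estimate in surgery against control was 1.39 ± 0.38 (adjusted p = 0.0773). The calls of Bub1 and Ube2c in VitD against control were lost without VitD replicate 1. Bub1b and Cdc20, an inhibitor and an activator of that complex, were at 0.223 to 1.64 and 1.75 to 5.51 CPM, each highest in VitD replicate 1, and were not called.

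Mki67, which encodes the proliferation marker Ki-67 on the surface of mitotic chromosomes, separated the groups more than most members. Mki67 measured 3.61 and 4.63 CPM in control, 8.74 and 9.08 after surgery alone, 15.8, 9.75 and 6.04 with VitD, 5.43, 7.03, 7.18 and 6.99 with pMT and 5.06, 3.91, 4.54 and 3.72 with pMT/VitD. The pMT libraries lay above both controls and below both surgery libraries, and all pMT/VitD libraries lay below all pMT libraries and overlapped the controls. The group means were 4.12 ± 0.72 CPM (SD, n = 2) in control, 8.91 ± 0.25 (n = 2) in surgery, 10.5 ± 4.94 (n = 3) in VitD, 6.66 ± 0.82 (n = 4) in pMT and 4.31 ± 0.61 (n = 4) in pMT/VitD. Mki67 fell by 1.05 ± 0.27 in pMT/VitD against surgery (edgeR adjusted p = 0.0307), or 2.07-fold, and rose by 1.35 ± 0.30 in VitD against control (adjusted p = 0.0169). Its estimates in surgery against control (1.11 ± 0.32) and pMT against surgery (-0.42 ± 0.27) did not pass (adjusted p = 0.0911 and 0.531).

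Tpx2, a spindle assembly factor and activator of Aurora A, ran opposite to most members. Tpx2 measured 42.8 and 44.9 CPM in control, 28.3 and 27.3 after surgery alone, 8.67, 27.9 and 36.1 with VitD, 38.3, 37.4, 33.1 and 41.1 with pMT and 61.9, 75, 44 and 43.4 with pMT/VitD. Both surgery libraries and all 3 VitD libraries lay below both controls, and every pMT/VitD library lay above every pMT and surgery library. The log2 fold changes were -0.66 ± 0.43 in surgery against control, -0.86 ± 0.39 in VitD against control and 1.01 ± 0.39 in pMT/VitD against surgery (edgeR adjusted p = 0.475, 0.184 and 0.128), so none was called. The last was called higher without VitD replicate 1 and with DESeq2, exactTest and voom. Mcm7 had the same signs in these comparisons, at -0.15, -0.16 and 0.10, and each of its signs turned under scaling by total counts alone. Whether reads of an overlapping or antisense gene enter the Tpx2 count could not be checked, since strand handling is not stated in the sources used here. With Pcna and Mcm7, Tpx2 took 28.2% of the summed CPM of all members in VitD replicate 1 and 68.9% in pMT/VitD replicate 2. Summed over all 35 members, levels were 145.8 and 147.8 CPM in control, 161.6 and 162.9 in surgery, 155.4 to 195.5 in VitD, 144.3 to 154.7 in pMT and 136.8 to 175.6 in pMT/VitD, where replicates 1 and 2 exceeded both surgery libraries. In the deposited TPM the sums were 77.38 and 78.87 in control, 107.3 and 110.1 in surgery and 102.9 to 135.2 in VitD. They were 68.64 to 100.7 in pMT and 72.61 to 81.42 in pMT/VitD, where every library lay below both surgery libraries. The sum over the other 32 members, a split made after the values were seen, was 58.1 and 59.0 CPM in the control libraries, 89.6 and 91.9 in surgery, 75.4 to 140.5 in VitD, 64.5 to 72.6 in pMT and 53.5 to 63.2 in pMT/VitD. Top2a, a topoisomerase, Kif11, a spindle motor, and Nusap1, a spindle microtubule protein, had estimates of -0.77, -0.76 and -0.72 in pMT/VitD against surgery and were not called.

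**Figure D3:**
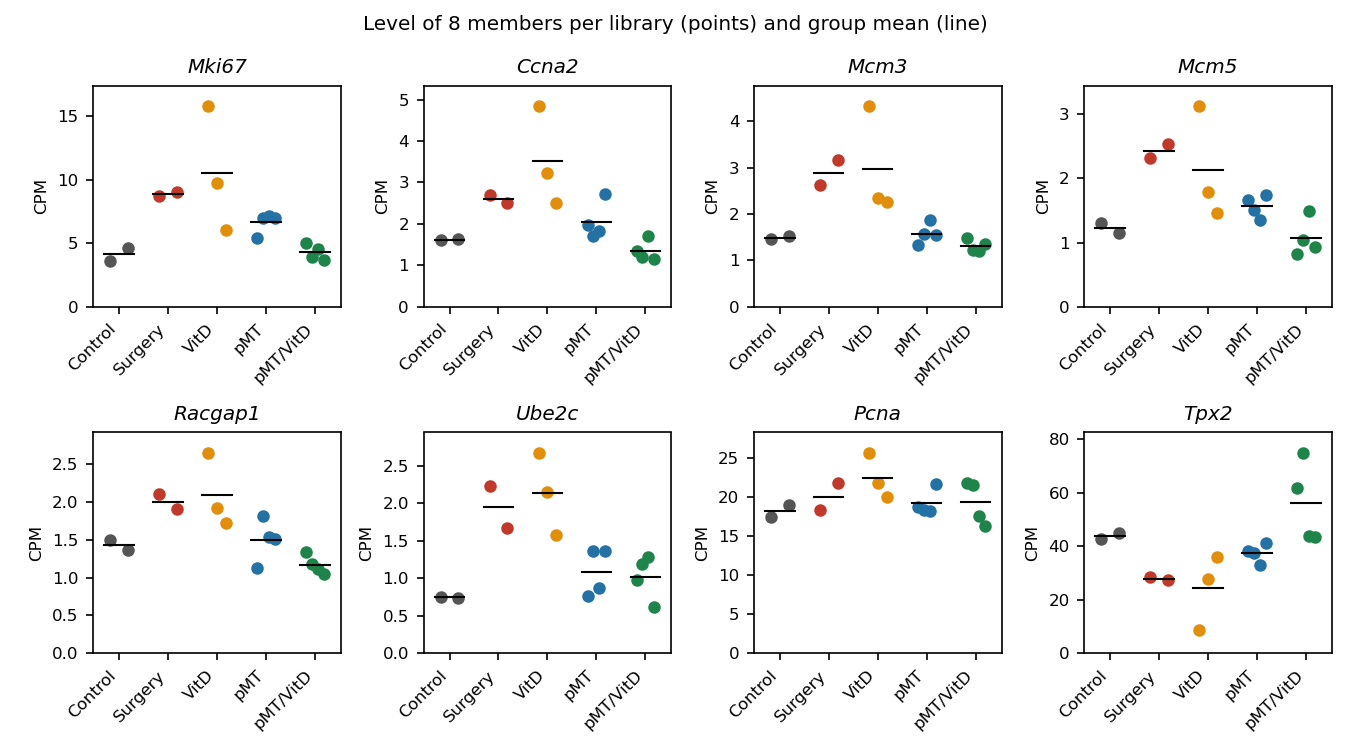
Points are libraries, lines group means, and the vertical axes CPM from 0, for 8 members. Mki67 lies at 8.74 and 9.08 CPM in the surgery libraries and at 3.72 to 5.06 in pMT/VitD, while Tpx2 lies at 27.3 and 28.3 in surgery and at 43.4 to 75.0 in pMT/VitD.

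Of the cytokinesis genes, Racgap1, part of the complex that sets the division plane, was called between 2 groups. Racgap1 measured 1.5 and 1.37 CPM in control, 2.11 and 1.91 after surgery alone, 2.66, 1.92 and 1.72 with VitD, 1.13, 1.82, 1.54 and 1.52 with pMT and 1.34, 1.19, 1.12 and 1.05 with pMT/VitD. All pMT/VitD libraries lay below both surgery libraries and below both controls. Racgap1 fell by 0.77 ± 0.22 in pMT/VitD against surgery (edgeR adjusted p = 0.0456), a call that was lost in 15 of 26 alternative analyses. Kif23 measured 1.26 and 1.27 CPM in control, 1.85 and 1.53 after surgery alone, 3.31, 1.97 and 1.65 with VitD, 1.47, 1.16, 1.39 and 1.11 with pMT and 1.17, 0.927, 1.08 and 0.973 with pMT/VitD. Prc1 measured 3.91 and 4.53 CPM in control, 5.87 and 5.84 after surgery alone, 8.45, 5.98 and 4.39 with VitD, 4.21, 3.86, 4.88 and 4.33 with pMT and 3.8, 3.69, 4.13 and 3.21 with pMT/VitD. Kif23, the motor partner of Racgap1, and Prc1, which bundles midzone microtubules, were called only for a difference among the 5 groups (edgeR adjusted p = 0.0199 and 0.0450), and VitD replicate 1 was the highest library for both. Anln, Ect2 and Kif20a had estimates of -0.97, -0.62 and -0.43 in pMT/VitD against surgery and of 1.26, 1.26 and 0.997 in VitD against control, without a call.

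Most members deviated together within groups. After subtraction of group means, the median correlation between 2 members was 0.453 over the 15 libraries, whereas the median for a member with all genes was 0.00327; members share library, depth and scaling, and the value is a description. The median correlation of a member with the others was 0.639 for Rrm2 and Prc1 and 0.637 for Mki67. It was below 0 for Tpx2 (-0.605), Mcm7 (-0.271) and Mcm2 (-0.123). VitD replicate 1 lay far from the other VitD libraries, with a members' median of 1.4 against 0.618 and 0.274. Tpx2 was at -2.33 there against -0.652 and -0.281, as log2 differences from control. The correlations were not computed without VitD replicate 1, so its part in them was not tested.

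Other genes of the same process were read from a second list of 64 proliferation genes, of which 63 were tested. Their median log2 fold changes were 0.38 in surgery against control, -0.18 in pMT against surgery, -0.38 in pMT/VitD against surgery and 0.71 in VitD against control. In pMT/VitD against surgery 6 of the 63 were called lower and 1 higher, beside 5.03% and 2.40% of all genes. Among those lower were the checkpoint kinase gene Ttk (-1.53, edgeR adjusted p = 0.0183), the kinetochore motor gene Cenpe (-1.27, 0.0269) and Cks2, a CDK subunit (-1.36, 0.0365). Rfc4, of the clamp loader, rose by 0.82 (0.0307). In VitD against control 9 rose and none fell, beside 5.48% of all genes called higher and 3.20% lower. Ttk, Cenpe, Cks2 and E2f1 were among those that rose (1.49, 1.36, 1.79 and 1.08). The abundant genes of this list, Stmn1 (27.6 TPM), Dut (27.0) and Rrm1 (16.6), were called in neither comparison.

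Genes that act before S phase did not follow the members as a group. Of 8 G1 cyclins and kinases with their regulators, only E2f4, a repressor of the E2F family, was called in any of the 4 comparisons above. Its log2 fold change was 0.66 in pMT/VitD against surgery (edgeR adjusted p = 0.0240), where 2.40% of all genes were called higher. It was -0.59 in VitD against control (adjusted p = 0.0369), where 3.20% of all genes were called lower. Ccnd1, cyclin D1, was at 25.3 and 26.9 CPM after surgery and 19.3 and 19.4 in control, without a call. Of 12 inhibitors and quiescence genes, Cdkn1a, which encodes the CDK inhibitor p21, and Gas1, a growth arrest gene, were called in all 4 of these comparisons. Of all genes, 1.55% were called in either direction in surgery against control and 1.94% in pMT against surgery. The shares were 7.44% in pMT/VitD against surgery and 8.67% in VitD against control. Cdkn1a lay at 8.62 and 9.23 CPM in control, 54.1 and 55.6 in surgery, 32.1 to 114 in VitD, 9.90 to 13.7 in pMT and 7.96 to 14 in pMT/VitD. It rose by 2.62 in surgery against control (edgeR adjusted p = 0.0134) and by 2.87 in VitD against control (0.00334), and fell by 2.28 in pMT against surgery (0.00465) and by 2.26 in pMT/VitD against surgery (0.00257). The inhibitor Cdkn1a thus moved in the same direction as the members whose genes promote division, and the pMT and pMT/VitD libraries did not overlap the surgery libraries. Gas1 had log2 fold changes of 1.08, 1.06, -0.76 and -0.83 in the same order of comparisons, and Btg1, an antiproliferative gene, rose by 0.60 in VitD against control.

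Several lists of markers of other cells moved with the members. The summed CPM of 7 macrophage and leukocyte markers was 179 and 183 in control, 332 and 336 in surgery, 296 to 438 in VitD, 153 to 205 in pMT and 147 to 194 in pMT/VitD, none of them at 0 in any library. In pMT/VitD against surgery 6 of the 7 fell (Lyz2 by 1.04, edgeR adjusted p = 0.00589), beside 5.03% of all genes called lower. In VitD against control 3 of the 7 rose, beside 5.48% of all genes called higher. The sum of 5 fibroblast markers was 2438 and 2467 in control, 4214 and 4239 in surgery, 3552 to 6653 in VitD, 2385 to 2825 in pMT and 1799 to 2634 in pMT/VitD. Of the 5, 3 were called lower in pMT/VitD against surgery, beside the 5.03% of all genes. In VitD against control 3 were called higher, beside the 5.48% of all genes. The 4 satellite cell and myoblast markers summed to 44.1 and 49.5 in control, 76.0 and 77.9 in surgery, 70.0 to 92.6 in VitD and 47.4 to 60.04 with pMT or pMT/VitD; of these Myog, a factor of differentiating myoblasts, was called, whereas Pax7, the satellite cell factor, stayed at 4.36 to 7.93 CPM. The sum of 7 lymphocyte and plasma cell markers, nearly all of it Cd4, which rat macrophages express too, was 35.4 and 37.6 in control, 64.2 and 64.8 in surgery, 59.5 to 75.5 in VitD, 29.0 to 37.6 in pMT and 20.4 to 40.8 in pMT/VitD, with 1 or 2 markers at 0 in 11 libraries. The part of these cell types in the members' levels was not tested.

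Muscle fibre markers (Acta1, Ckm and 4 myosin genes) ran opposite to the members in summed CPM, but not in summed TPM. They summed to 127600 and 142000 CPM in control, 110100 and 113400 in surgery, 82320 to 118100 in VitD, 112700 to 125300 in pMT and 134500 to 148800 in pMT/VitD. In CPM every surgery, VitD and pMT library thus lay below both controls, and every pMT/VitD library above all surgery, VitD and pMT libraries. In the deposited TPM the groups overlapped. The sums were 95450 and 81980 in control, 92640 and 89140 in surgery, 64480 to 95270 in VitD, 65080 to 97170 in pMT and 76230 to 99900 in pMT/VitD. None of the 6 genes was called in any comparison. Endothelial markers summed to 193 and 198 CPM in control, 217 and 218 in surgery, 216 to 241 in VitD, 183 to 245 in pMT and 166 to 217 in pMT/VitD. All surgery and VitD libraries thus lay above both controls. Of the 5 endothelial markers 1 was called, higher in VitD against control, where 5.48% of all genes were called higher. Schwann cell markers lay at 66.8 to 82.7 CPM, with every surgery and VitD library above both controls, and none was called. Erythroblast markers summed to 145.9 and 153 CPM in control, 134.9 and 138.8 in surgery, 121.8 to 152.1 in VitD, 160.8 to 179.9 in pMT and 134.3 to 158.7 in pMT/VitD. Every pMT library thus lay above all libraries of the other groups, and both surgery libraries below both controls. Adipocyte markers summed to 15.6 to 32.3 CPM. Those of neutrophils and marrow precursors summed to 1.36 and 1.72 CPM in control, 3.35 and 3.48 in surgery, 3.02 to 4.80 in VitD, 1.55 to 5.07 in pMT and 1.27 to 11.4 in pMT/VitD, with Ltf at 0 in all 15 libraries and Elane at no more than 3 counts. The part of these cells in the members' levels was not tested either.

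**Figure D4:**
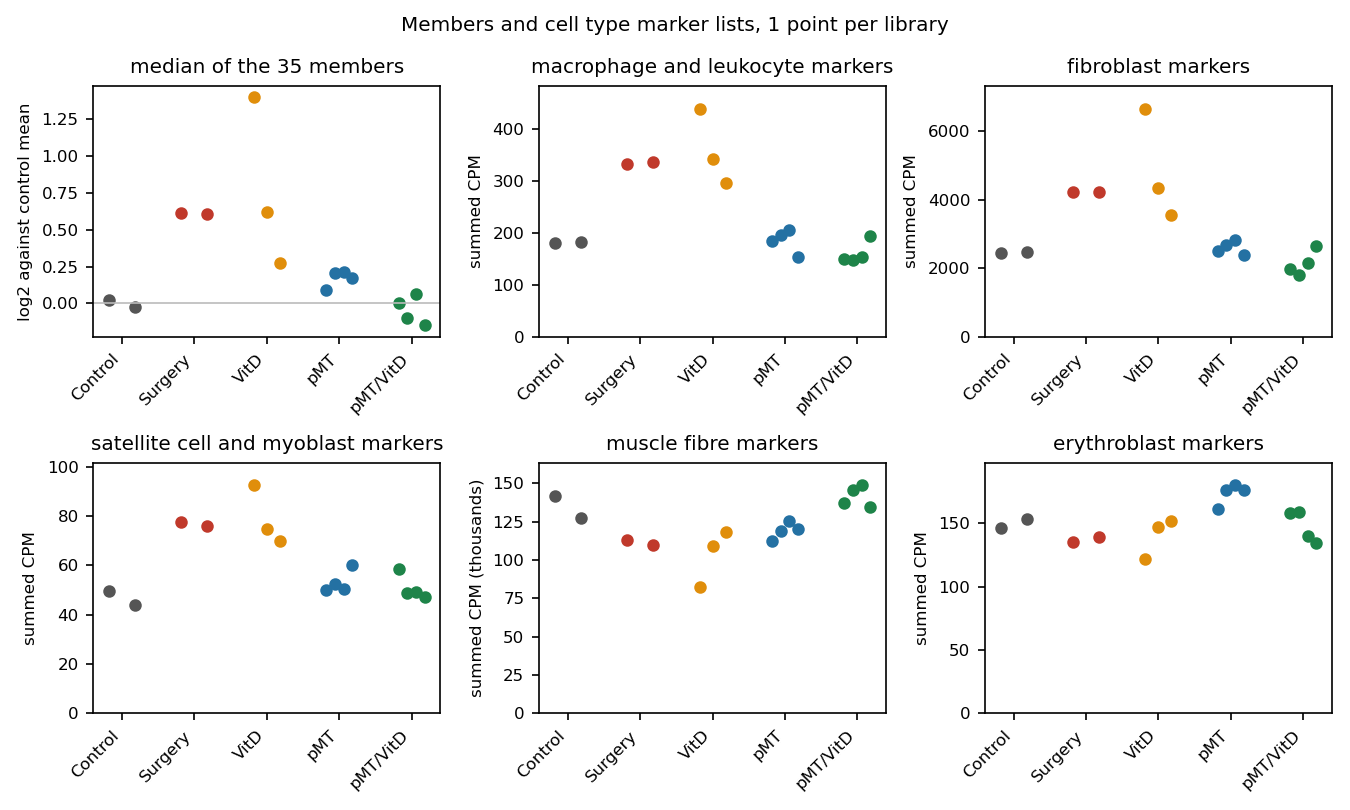
Each point is a library, and the panels give the median log2 difference of the 35 members from the control mean and the summed CPM of 5 marker lists. Macrophage, fibroblast and myoblast sums are higher in surgery and VitD than in the other groups, as is the members' median (0.614 and 0.605 in surgery), and VitD replicate 1 is the highest point in each of these and the lowest in the muscle fibre sum (82320 CPM).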

How the data were processed

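Per the labels and the study's methods, the authors used Trimmomatic 0.38 for trimming, HISAT2 2.1.0 for alignment to rn6 (RefSeq annotation), SAMtools 1.9 and, for quantification, StringTie 2.1.3b. The authors deposited read counts per gene, not normalized, with TPM and FPKM values of the same 15 libraries; FPKM was not used here. Strand handling and reads that match several genes are not stated in the sources used here, so genes with near-identical copies or antisense partners are uncertain. The deposited TPM values served for levels between genes, for gene length and for second sums of the members and of the muscle fibre markers only.

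Counts were analysed in R 4.3.3 with edgeR 4.0.16 (filterByExpr, TMM factors of 0.849 to 1.20, glmQLFit with robust estimation) on all 15 libraries and 5 group means. This main test was chosen over the exactTest of the study's methods because groups of 2 libraries give the latter little information on the spread; exactTest was run as an alternative. Standard errors were derived from the log2 fold change and its F statistic. CPM were counts over the TMM-scaled library size, and log2 CPM used a prior count of 2. The other alternatives were RLE factors, library size only, DESeq2 1.42.0, voom with quality weights per sample (limma 3.58.1), a minimum of 10 counts in all libraries, no minimum, only the groups compared, a replicate block, removal of a trend with gene length, and leaving out libraries. None of the 105 pairs of libraries held identical counts. The fit was tested on simulated data. The members, the other lists and the tests were chosen with earlier results of these data known. Values by library are given for members called in any comparison and for the most abundant member of each role, and from each other list for at most the 4 most abundant and 4 called genes.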

Additional observations from a re-analysis of the deposited data

Results flagged for a closer look

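In groups of 4 libraries, 4 of 70 sets of member values had a highest or lowest library far from the other 3 by Dixon's criterion, where chance gives about 1 in 20, or 3.5. All 4 were in the pMT group. Mki67 was at 5.43 CPM in pMT replicate 1, against 6.99 to 7.18 in the other pMT libraries, and Mcm4 at 4.80 in the same library, against 5.28 to 5.32. Tk1 was at 3.60 CPM in pMT replicate 2, against 4.19 to 4.29. Pcna was at 21.7 CPM in pMT replicate 4, against 18.2 to 18.7, and this library is one of those that stood apart from their groups.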

How the results depend on the processing

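Of 256 counts of members called under alternatives, 207 stayed within 1.5 times the main count and 49 did not. The 13 calls of single members kept their direction in all 338 alternative values, 250 with and 88 without an adjusted p under 0.05. For surgery against control the count was 0, but 21 with only these groups, 24 with exactTest, 19 with voom, 6 with library size only, 5 with DESeq2 and 1 with the length trend removed or without both replicates 4; leaving out a replicate gave 0 to 5, with 5 without VitD replicate 1. For pMT against surgery it was 0, but 15 with voom, 3 with exactTest and 1 with DESeq2, and 0 to 2 without a replicate. For pMT/VitD against surgery it was 5, but 25 with voom, 19 with library size only, 11 with exactTest, 10 with DESeq2 and 0 with the replicate block, and 0 to 14 without a replicate: 0 without either surgery replicate, 1 without pMT/VitD replicate 2, 3 without pMT/VitD replicate 1, VitD replicate 2 or either control replicate, and 14 without VitD replicate 1. For VitD against control it was 8, but 25 with voom, 22 with library size only, 15 with DESeq2 and 0 with only these groups, and 0 to 23 without a replicate. For any difference among the groups it was 11, but 28 with voom, 27 with library size only, 19 with DESeq2 and 3 with the replicate block, and 5 to 20 without a replicate: 5 without control replicate 1, surgery replicate 1 or VitD replicate 2, 7 without the other control or surgery replicate or VitD replicate 1, and 20 without VitD replicate 3. Voom alone called 8 members in pMT/VitD against pMT and 6 in the interaction. In pMT/VitD against pMT, DESeq2 gave an adjusted p for 3 members, and the others are left out of its count. Most counts in this paragraph stand without the share of all genes called by the same analysis. That share also changed with the analysis, so a larger count alone is not a result about the members. In the main analysis it was 7.44% in pMT/VitD against surgery, 8.67% in VitD against control and 11.8% for any difference among the groups. The causes of these differences were not tested.

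Scaling by library size alone shifted the median of all genes by 0.25 in surgery against control and by -0.33 in pMT/VitD against surgery, and the members' medians there became 0.85 and -0.99. Leaving out 1 library moved the members' median between -0.094 and 0.357 in VitD against surgery, -0.659 and -0.172 in the interaction, 0.446 and 1.06 in VitD against control and 0.136 and 0.26 in pMT against control, each extreme of the first 3 without VitD replicate 1 or 3. Same-numbered libraries of different groups had a median correlation of 0.0361 (from -0.869 to 0.375), and those with different numbers -0.0216 (from -0.724 to 0.83). In groups of 2 the deviations from the group mean mirror each other, so these values cannot decide whether the numbers pair the libraries. Under the replicate block the count for VitD against control was 6, made up of 5 of the 8 members called without it and Birc5. With 2 control and 2 surgery libraries, a missing call does not show equal levels, and members with few counts had wide errors (in surgery against control, a standard error of 0.89 for Ccne1 and 0.54 for Bub1b).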
